A study of Homo sapiens with 6 samples.

Results

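Stanniocalcin 1 (STC1) and stanniocalcin 2 (STC2) are the 2 members of a small family of secreted hormones. Both genes were chosen by name from the gene counts of SU-CCS-1 cells, a human clear cell sarcoma line that carries the EWSR1::ATF1 fusion (EA1), with the levels of STC1 in these libraries already known. Of the 18118 genes in the counts, 1 of the 2 members, STC1 (ENSG00000159167), was found. STC2 was not analysed here. The level of STC1 in cells with control or EA1 siRNA is therefore given as a description, without a test, and tests are given for other genes.

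The data were 6 RNA-seq libraries of poly(A)-selected RNA, all from SU-CCS-1 cells 48 h after transfection with 5 pmol of siRNA. In the control group (2 libraries) the siRNA was a scrambled negative control. In the other groups it was EA1 siRNA 1 (2 libraries) or EA1 siRNA 2 (2 libraries), called siRNA 1 and siRNA 2 from here on. Both are labelled as knockdown of EA1, not deletion, and the counts give no separate value for fusion RNA. The groups shared the cell line, the time and the dose. All libraries come from a single line, and no label says that replicates were separate cultures, so the p values measure only the spread between these samples, which may be technical.

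Stanniocalcins are disulfide-linked glycoproteins, first known in fish as hormones that lower blood calcium. In mammals they act mostly near the cells that secrete them, on calcium and phosphate transport, and they bind and inhibit the pappalysin proteases (PAPP-A and PAPP-A2), which cleave insulin-like growth factor (IGF) binding proteins and so release IGFs. STC1 is also known as a gene induced by low oxygen, and STC2 as a gene induced by endoplasmic reticulum and amino acid stress through ATF4. EWSR1::ATF1 joins part of EWSR1 to the DNA-binding domain of ATF1, a factor of the CREB family, and drives clear cell sarcoma.

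In hg38, STC1 lies on chromosome 8 from 23841929 to 23854806, on the minus strand, and no other gene in GENCODE release 44 overlaps it. Its canonical transcript has 4 exons and 3868 bases. Of these, 741 bases encode a protein of 247 residues and 3127 bases are noncoding. A second coding transcript also has 4 exons and encodes 178 residues. The counts were made per gene and cannot tell the transcripts apart.

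Library totals ranged from 5942808 to 7599305 counts, at which 3 counts correspond to 0.395 to 0.505 counts per 1000000 (CPM). The knockdown was checked on ATF1 (chromosome 12, 50763710 to 50821162), whose counts mix fusion reads with those of the unrearranged gene. Normalized ATF1 levels were 82.0 and 87.2 CPM in control libraries, 21.1 and 20.2 with siRNA 1, and 21.7 and 22.3 with siRNA 2. ATF1 was higher in control than with either siRNA (log2 fold change 2.03 ± 0.13 SE, adjusted p = 6.70e-07, and 1.94 ± 0.13, adjusted p = 1.05e-06, edgeR with Benjamini-Hochberg adjustment). EWSR1 did not pass the test with either siRNA (215 ± 25.1 CPM in control, 199 ± 5.52 and 209 ± 16.1 with the siRNAs, SD, n = 2, adjusted p = 0.450 and 0.789, edgeR). All 9 markers of melanocytic and neural crest cells were in the counts and 8 had a mean of at least 10 CPM (MLANA was between 0 and 4.04 CPM). Of the other markers, 2 of 5 of fibroblasts, 1 of 5 of epithelium, 2 of 4 of endothelium, 1 of 5 of leukocytes and 0 of 5 of skeletal muscle were in the counts.

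STC1 was among the most abundant transcripts of control cells. Its deposited counts were 18417 and 23804 in the control libraries, 279 and 602 with siRNA 1, and 399 and 1174 with siRNA 2. In control cells this was 0.276% (95% exact binomial interval 0.272% to 0.280%) and 0.313% (0.309% to 0.317%) of all counts, or 1 count in every 362 and 319. The share was 0.00403% (0.00357% to 0.00454%) and 0.00991% (0.00914% to 0.0107%) with siRNA 1. With siRNA 2 it was 0.00671% (0.00607% to 0.00741%) and 0.0165% (0.0156% to 0.0175%). The intervals cover counting error only. Those of the control libraries lie above those of all 4 knockdown libraries. No pair of intervals overlaps, also not those of replicates of the same group. A gap between intervals therefore does not measure a difference between conditions. In bulk RNA, fewer cells that express a gene and less RNA per cell cannot be told apart.

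After TMM normalization, which scales libraries to a common level for most genes, STC1 was at 2750.5 and 3054 CPM in control libraries. It was at 39.6 and 98.9 CPM with siRNA 1 and at 70.9 and 164 CPM with siRNA 2. The groups' means were 2902 ± 214, 69.3 ± 42.0 and 118 ± 66.2 CPM (SD, n = 2). Control and knockdown libraries did not overlap, and the lowest control library was 16.7-fold above the highest knockdown library. Such a separation in either direction was common in these data, with 8068 of 14571 tested genes (55.4%) showing it. The ranges of the siRNA groups overlapped, and in order of level the knockdown libraries were EA1 siRNA 1 replicate 1, EA1 siRNA 2 replicate 1, EA1 siRNA 1 replicate 2 and EA1 siRNA 2 replicate 2.

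**Figure D1:**
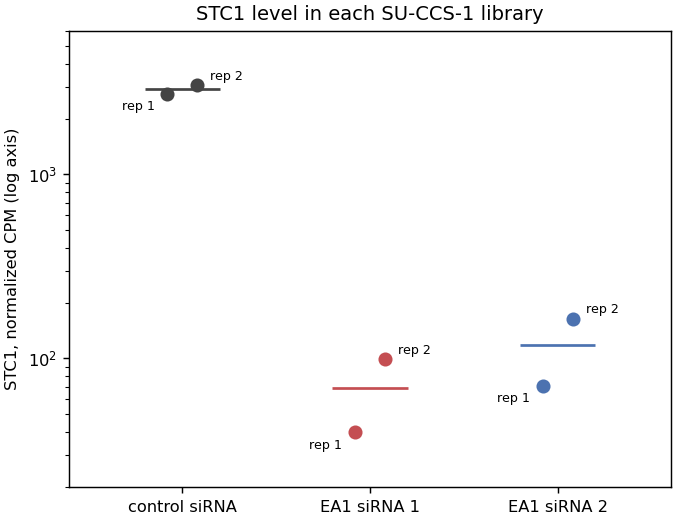
STC1 level in normalized CPM (log axis) in each library, as points, with the mean of each group as a line. The control libraries lie at 2750.5 and 3054 CPM, and the 4 knockdown libraries between 39.6 and 164 CPM, with the EA1 siRNA 1 and EA1 siRNA 2 libraries overlapping.

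The rank of STC1 changed with its level. By counts it was the 16th and 11th gene of the control libraries, and in the knockdown libraries its rank was 5428 and 2368 with siRNA 1 and 3484 and 1238 with siRNA 2. Per length, as counts per kb of exon over 18063 genes with a known exon length, its rank was 20 and 18 in control, 4550 and 1601 with siRNA 1, and 2552 and 823 with siRNA 2. In TPM, a level that accounts for exon length and depth, STC1 was at 2218 and 2811 in control, 35.9 and 89.9 with siRNA 1, and 57.7 and 155 with siRNA 2. It thus stayed well above 3 counts in every library, and the lowest library still held 279 counts.

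The fitted log2 fold change of STC1, control over knockdown, was 5.40 ± 0.43 (SE) for siRNA 1, a 42.2-fold difference, and 4.61 ± 0.41 for siRNA 2, a 24.5-fold difference. Over the mean of both siRNAs it was 5.01 ± 0.32, or 32.1-fold. These folds depended on single libraries. For siRNA 1 the value was 6.22 (74.3-fold) without EA1 siRNA 1 replicate 2 and 4.87 (29.3-fold) without EA1 siRNA 1 replicate 1. For siRNA 2 it was 5.39 (41.9-fold) without EA1 siRNA 2 replicate 2 and 4.16 (17.9-fold) without EA1 siRNA 2 replicate 1. Among the 14571 genes tested the value for the mean of both siRNAs ranked 23, and among the genes with a mean of at least 10 CPM it ranked 2. Of the genes that were lower with knockdown, STC1 had the largest difference in CPM with each siRNA. It was lower by 2833 CPM with siRNA 1 and by 2784 CPM with siRNA 2, which is 1.597% and 1.83% of the decreases in CPM summed over all such genes. In the plot of all genes, STC1 stands apart because most genes with a log2 fold change of this size had far lower CPM.

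**Figure D2:**
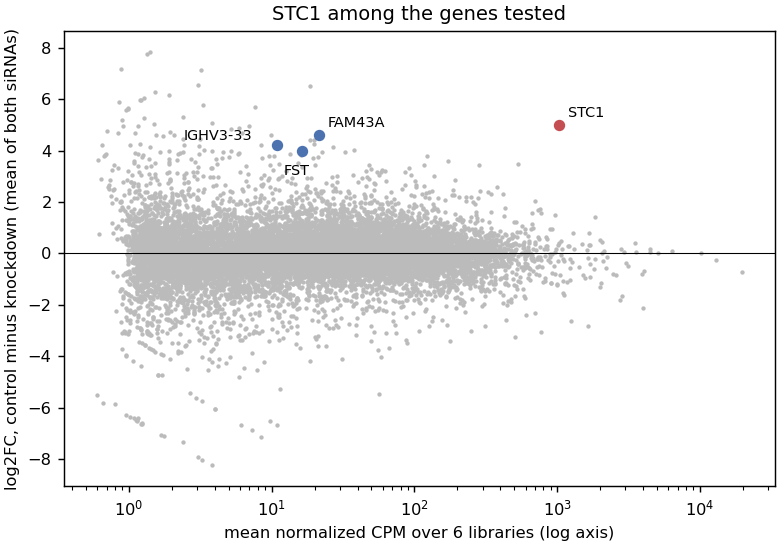
Log2 fold change of each tested gene, control over the mean of both EA1 siRNAs, against its mean normalized CPM over 6 libraries (log axis). STC1 (red) has a log2 fold change of 5.01 at a high mean level, and the 3 genes nearest to it in pattern (blue) are FST, IGHV3-33 and FAM43A.

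Replicates differed more for STC1 than for most genes. Replicate 2 was 1.11-fold above replicate 1 in control, 2.50-fold with siRNA 1 and 2.32-fold with siRNA 2. Over the 4 knockdown libraries the highest STC1 level was 4.15-fold the lowest. ATF1 varied 1.10-fold over the same libraries. The pooled SD of log2 CPM within conditions was 0.73 for STC1, against a median of 0.13 over 9887 genes with a mean of at least 10 CPM, and 36 of these genes (0.364%) had a larger SD. The gene's biological coefficient of variation was 0.263, against 0.0918 for the trend at its level. Between the siRNAs, STC1 was higher with siRNA 2 by 0.78 ± 0.39 (SE) on the log2 scale, or 1.72-fold. That value was 0.036 without EA1 siRNA 2 replicate 2 and 1.58 without EA1 siRNA 1 replicate 2. In total, 6 genes were over 2-fold higher in replicate 2 than in replicate 1 with both siRNAs (FST, IGFBP5, NTRK2, SNAI1, STC1 and UCA1, named after their values were seen), and 10 genes were over 2-fold lower. IGFBP5 and UCA1 were also over 2-fold higher in replicate 2 of control (1.81 and 1.69 on the log2 scale). For FST, NTRK2, SNAI1 and STC1 that difference in control lay between -0.17 and 0.54.

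Markers of cell identity differed between the same groups. The summed level of the 9 melanocytic and neural crest markers was taken in CPM without TMM scaling. It ranged from 3283 to 3457 in control, from 9018 to 9263 with siRNA 1 and from 8271 to 12251 with siRNA 2. PMEL was the largest part of the sum, at 1068 to 1400 CPM in control and 4245 to 7343 with the siRNAs. SOX10 changed little, from 787 and 888 CPM in control to between 862 and 955 with the siRNAs. All markers of this list except SOX10 were higher in every knockdown library than in both control libraries. The fibroblast markers LUM and COL1A1 summed to 2.76 to 3.45 CPM in control, 8.89 to 12.1 with siRNA 1 and 12.9 to 21.7 with siRNA 2. With the siRNAs the sum was mostly LUM (6.26 to 17.3 CPM), while COL1A1 stayed at 1.65 to 4.38 CPM over all libraries. DCN, PDGFRA and COL1A2 were not in the counts. Markers of epithelium, endothelium and leukocytes summed to at most 2.95 CPM in any library. The part of these differences in the level of STC1 was not tested.

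The genes whose pattern over the 6 libraries lay nearest to that of STC1 were FST, IGHV3-33 and FAM43A, of 9886 other genes with a mean of at least 10 CPM. Nearness was measured as the root mean square distance between log2 CPM values centred on each gene's mean, which was 0.615, 0.627 and 0.638. The Pearson correlations over the 6 libraries, which fall into a control and a knockdown cluster and share their depths, were 0.991, 0.990 and 0.972. By correlation alone PLD5 (1.000), RFK (0.999) and SEMA4C (0.999) came first, but they spanned a narrower range of levels, and PLD5 ranked 31 by distance.

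FST encodes follistatin, a secreted protein that binds and inhibits activin. It lies on chromosome 5 (53480626 to 53487134). It held 306 and 317 counts in control, 9 and 25 with siRNA 1, and 9 and 28 with siRNA 2. Its level was 45.7 and 40.7 CPM in control, 1.28 and 4.11 with siRNA 1, and 1.599 and 3.92 with siRNA 2. Replicate 2 was above replicate 1 with each siRNA, as for STC1, but FST was chosen by a distance that includes these replicate differences. Its log2 fold change was 4.04 ± 0.38 (SE) for siRNA 1 and 3.90 ± 0.37 for siRNA 2, given without a test because FST was chosen for this pattern. FAM43A (chromosome 3, 194685883 to 194689037) held 398 and 460 counts in control, 15 and 22 with siRNA 1, and 7 and 19 with siRNA 2. Its log2 fold change, likewise a description, was 4.38 ± 0.26 and 4.86 ± 0.28. IGHV3-33 (chromosome 14, 106359793 to 106360324) is an immunoglobulin heavy chain variable segment. It held 190 and 239 counts in control, 6 and 7 with siRNA 1, and 10 and 22 with siRNA 2. Reads of its near-identical relatives may be split or lost between segments, so its level is uncertain. FST, FAM43A and IGHV3-33 reached the minimum mean of 10 CPM only through the control libraries.

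**Figure D3:**
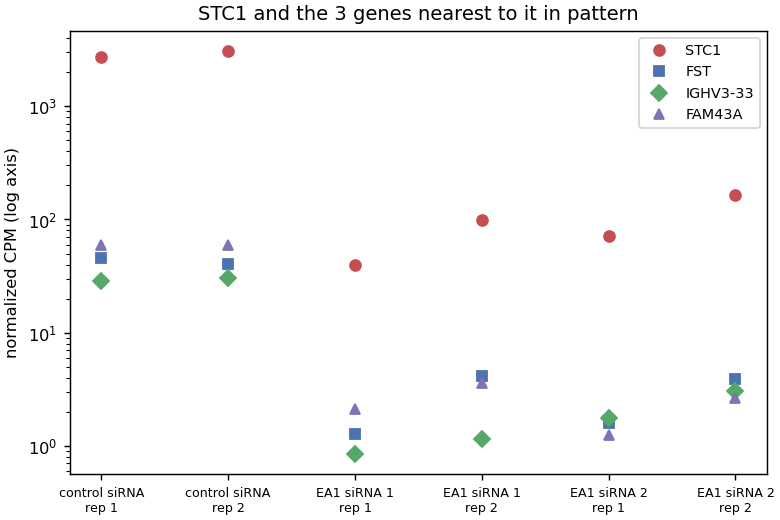
Normalized CPM (log axis) of STC1, FST, IGHV3-33 and FAM43A in each of the 6 libraries. All 4 genes are higher in both control libraries than in the 4 knockdown libraries, from 2750.5 and 3054 to at most 164 CPM for STC1 and from 45.7 and 40.7 to at most 4.11 CPM for FST.

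The fusion targeted by the siRNAs carries the DNA-binding domain of a CREB family factor. For this reason, and because FST was the gene nearest to STC1 in pattern, the region around its annotated start is shown. It spans chr5:53480379-53480678 (GRCh38.p14, plus strand, 250 bases before to 50 bases after the start, from RefSeq), and capitals mark TGACG, the core of the CREB/ATF recognition sequence, searched on both strands.
FST start region: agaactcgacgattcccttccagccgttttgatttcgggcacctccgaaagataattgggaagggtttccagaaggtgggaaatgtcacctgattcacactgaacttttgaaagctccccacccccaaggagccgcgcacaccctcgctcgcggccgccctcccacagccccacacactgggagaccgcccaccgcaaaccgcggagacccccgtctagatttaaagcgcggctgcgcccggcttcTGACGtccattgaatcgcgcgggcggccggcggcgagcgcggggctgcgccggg

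The search found 1 TGACG in this window and no full palindrome TGACGTCA or AP-1 sequence TGAGTCA, where any TGACGTCA also holds TGACG. Of 35116 windows of the same length, 24.6% held TGACG, 1.85% TGACGTCA and 4.95% TGAGTCA. The window of FAM43A held no match to these 3 motifs. Only the windows at the starts of these genes were searched, so sites farther away were not covered, and no window of STC1 was searched. A match of letters is a description and does not show binding, and the lack of a match does not show that binding is absent.

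The genes of the pathway that stanniocalcins act on were described by their counts. Over all tested genes, 40.1% were called for siRNA 1 (20.3% higher and 19.9% lower in control, adjusted p under 0.05, edgeR) and 36.7% for siRNA 2 (18.2% higher, 18.5% lower). Against the mean of both siRNAs 43.5% were called (22.1% higher, 21.5% lower), and between the siRNAs 2.24% (1.44% higher and 0.796% lower with siRNA 2). With each siRNA in the same direction, 29.9% were called, 15.1% higher and 14.8% lower in control. All lists below were chosen with earlier results of these data known, and their counts are set beside these shares.

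Of 17 genes of the PAPP-A and IGF axis, 10 were tested. PAPPA, PAPPA2, PRG2, IGFBP1, IGFBP2, IGFBP6 and IGF2 were not found by name in the counts and so were not analysed here. Against the mean of both siRNAs 3 were called higher in control and 6 lower, and 2 were higher and 4 lower in control with both siRNAs tested singly. With siRNA 1 alone 2 were higher and 4 lower, and with siRNA 2 alone 3 and 6. The median log2 fold change of the 10 genes was -0.90, against -0.01 over all genes tested. Leaving out control siRNA replicate 1 took the calls of IGF1R (adjusted p = 0.0741, edgeR), IGFBP5 (0.304) and INSR (0.0815), and leaving out control siRNA replicate 2 took those of IGF1 (0.0863) and INSR (0.0513).

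Among the binding proteins, which hold IGFs in the extracellular space, IGFBP4 is the best known substrate of PAPP-A. Its counts were 376 and 556 in control, 183 and 180 with siRNA 1, and 100 and 278 with siRNA 2. All knockdown libraries lay below the control libraries, and IGFBP4 fell with both siRNAs (log2 fold change 1.20 ± 0.26, adjusted p = 0.00363, and 1.15 ± 0.26, adjusted p = 0.00529, control over knockdown, edgeR). IGFBP5, cleaved by both pappalysins, held 194 and 796 counts in control, 782 and 1683 with siRNA 1, and 400 and 2152 with siRNA 2. The groups overlapped, but among libraries of the same replicate number both knockdown libraries lay above the control library. Replicate 2 was above replicate 1 by 1.81 in control, 1.32 with siRNA 1 and 2.08 with siRNA 2 on the log2 scale. A fit with the replicate number as a block, in which IGFBP5 was called, is given in the last section. Without the block, IGFBP5 did not pass the test with either siRNA (adjusted p = 0.0724 and 0.0846, edgeR). Against the mean of both it passed narrowly (log2 fold change -1.52, adjusted p = 0.0499), and with DESeq2 the adjusted p was 0.234. The call was also lost without EA1 siRNA 1 replicate 2 (adjusted p = 0.151, edgeR) and without EA1 siRNA 2 replicate 2 (0.0902). IGFBP3, the main carrier of IGFs in blood, was at 4.38 ± 1.84 CPM in control, 6.64 ± 1.25 with siRNA 1 and 11.7 ± 6.83 with siRNA 2 (SD, n = 2). It was called with siRNA 2 (-1.41 ± 0.43, adjusted p = 0.0246, edgeR) and not with siRNA 1 (adjusted p = 0.302). IGFBP7, a secreted relative with low affinity for IGFs, rose from 173 ± 2.86 CPM to 543 ± 51.1 and 532 ± 86.1 (log2 fold change -1.64 ± 0.13 and -1.62 ± 0.13, adjusted p = 2.82e-06 and 3.99e-06, edgeR).

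IGF1, the ligand, was near the limit of detection in control, with 5 and 1 counts. It held 15 and 13 counts with siRNA 1, and 65 and 19 with siRNA 2 (adjusted p = 0.0708 and 0.00294, edgeR). Of the receptors, the signalling receptor IGF1R was at 143 ± 8.41 CPM in control, 134 ± 1.67 with siRNA 1 and 88.6 ± 10.002 with siRNA 2. It passed the test with siRNA 2 (0.69 ± 0.11, adjusted p = 5.22e-04, edgeR) and not with siRNA 1 (0.10 ± 0.11, adjusted p = 0.512). IGF2R, which takes up IGF2 for degradation, fell from 2502 ± 201 CPM to 1568 ± 125 and 1928 ± 159 (log2 fold change 0.67 ± 0.12 and 0.38 ± 0.12, adjusted p = 0.00105 and 0.0314, edgeR). INSR, the insulin receptor, rose from 71.3 ± 2.80 CPM to 88.8 ± 0.818 and 93.6 ± 2.24 (adjusted p = 0.0263 and 0.00991, edgeR). Both adaptors downstream of these receptors rose. IRS1 was at 79.2 ± 3.91 CPM in control and 268 ± 21.6 and 173 ± 15.6 with the siRNAs (-1.76 ± 0.11 and -1.13 ± 0.11, adjusted p = 7.26e-07 and 1.81e-05, edgeR). IRS2 was at 228 ± 1.18 CPM in control and 462 ± 23.9 and 340 ± 1.25 with the siRNAs (-1.02 ± 0.10 and -0.57 ± 0.10, adjusted p = 1.09e-05 and 7.95e-04, edgeR).

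Of 45 genes of the integrated stress response, the ATF4 program under which STC2 is known, 39 were tested. Against the mean of both siRNAs 15 were higher in control and 7 lower, and with each siRNA 8 (20.5%) were higher and 6 (15.4%) lower. The median log2 fold change was 0.29. The largest decreases with knockdown were in CTH, the cystathionine lyase that makes cysteine, and TRIB3, a pseudokinase induced by stress. CTH fell from 295 ± 9.74 CPM to 26.7 ± 2.88 and 27.2 ± 1.77 (log2 fold change 3.47 ± 0.12 and 3.44 ± 0.12, adjusted p = 7.00e-08 and 7.74e-08, edgeR). TRIB3 fell from 17.0 ± 1.14 CPM to 5.46 ± 0.512 and 2.59 ± 0.897 (1.63 ± 0.27 and 2.68 ± 0.30, adjusted p = 5.71e-04 and 4.29e-05, edgeR). In the opposite direction, the lipoprotein receptor gene VLDLR rose from 34.7 ± 2.45 CPM to 219 ± 11.7 and 109 ± 9.88, and DDIT4, an inhibitor of mTORC1, rose from 51.2 ± 0.365 CPM to 140 ± 22.2 and 114 ± 23.0.

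Of 34 genes for chaperones of the endoplasmic reticulum and the unfolded protein response, 33 were tested. In the comparison with both siRNAs 8 were higher and 5 lower in control, and with each siRNA 7 (21.2%) were higher and 3 (9.09%) lower. The median log2 fold change was 0.01. Without control siRNA replicate 2 the number lower in control was 3. ERN1, which encodes the stress sensor IRE1, fell from 247 ± 21.4 CPM to 75.6 ± 3.73 and 77.4 ± 12.4 (1.71 ± 0.13 and 1.67 ± 0.13, adjusted p = 1.81e-06 and 2.51e-06, edgeR). SELENOS, a selenoprotein of the degradation machinery, fell from 28.7 ± 2.49 to 16.1 ± 1.45 and 17.0 ± 1.29 CPM. SEL1L, an adaptor of the ubiquitin ligase of that machinery, rose from 120 ± 2.91 to 294 ± 9.37 and 324 ± 33.2 CPM. PDIA4, a disulfide isomerase, rose from 128 ± 4.46 to 264 ± 15.1 and 302 ± 9.07 CPM.

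Of 48 genes of the hypoxia response, the program under which STC1 is known, 44 were tested. Set against both siRNAs together, 14 were higher and 14 lower in control, and with each siRNA 9 (20.5%) were higher and 12 (27.3%) lower. The median log2 fold change was -0.17. SLC2A3, the glucose transporter GLUT3, fell from 234 ± 12.5 CPM to 40.4 ± 5.37 and 26.5 ± 9.53 (2.54 ± 0.18 and 3.13 ± 0.19, adjusted p = 1.31e-06 and 5.75e-07, edgeR). ANGPTL4, a secreted inhibitor of lipoprotein lipase, held 19 and 35 counts in control, 1 and 6 with siRNA 1, and 0 and 5 with siRNA 2 (adjusted p = 0.0201 and 0.0134, edgeR). Its call against the mean of both siRNAs was lost without control siRNA replicate 2 (adjusted p = 0.0600). NDRG1 rose from 54.2 ± 3.18 CPM to 253 ± 47.5 and 194 ± 49.0 (-2.22 ± 0.18 and -1.84 ± 0.18, adjusted p = 3.19e-06 and 1.44e-05, edgeR). LOX, which crosslinks collagen, held 5 and 12 counts in control, 49 and 35 with siRNA 1, and 27 and 47 with siRNA 2 (adjusted p = 0.00108 and 0.00203, edgeR). Of the transcription factors of this program, HIF1A was among the genes that fell with each siRNA and EPAS1 and ARNT among those that rose. They were named outside the rule for named genes, and other regulators on this list are not described.

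**Figure D4:**
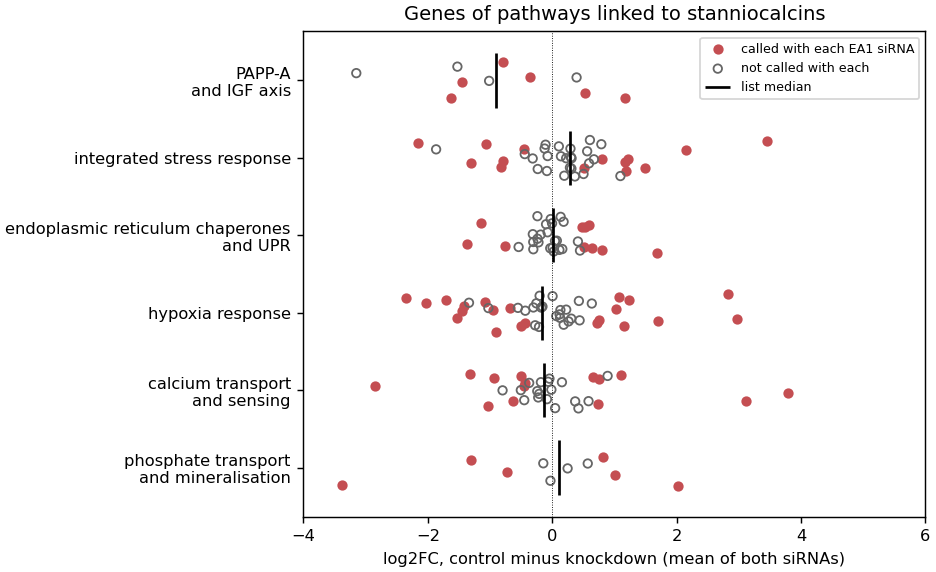
Log2 fold change, control over the mean of both EA1 siRNAs, of the tested genes of 6 lists linked to stanniocalcins. Filled points were called with each EA1 siRNA, open points were not, and bars mark list medians, which run from -0.90 for the PAPP-A and IGF axis to 0.29 for the integrated stress response.

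Of 47 genes of calcium transport and sensing, 32 were tested. For the mean of the siRNAs 8 were higher and 9 lower in control, and with each siRNA 6 (18.8%) were higher and 8 (25%) lower. The median log2 fold change was -0.13. Without control siRNA replicate 2 the number higher in control was 5. ATP2C2, a calcium and manganese pump of the secretory pathway, fell from 26.6 ± 1.49 CPM to 1.09 ± 0.544 and 3.41 ± 0.458 (4.61 ± 0.33 and 2.97 ± 0.27, adjusted p = 1.38e-06 and 1.04e-05, edgeR). PTHLH, which encodes the parathyroid hormone-related hormone, held 30 and 34 counts in control, 3 and 7 with siRNA 1, and 2 and 2 with siRNA 2, at which no fold is given (adjusted p = 0.00417 and 9.84e-04, edgeR). EFHD1, a mitochondrial calcium-binding protein, held 8 and 2 counts in control, 33 and 40 with siRNA 1, and 41 and 17 with siRNA 2. ORAI3, a subunit of store-operated calcium channels, rose from 10.5 ± 0.726 to 27.5 ± 4.04 and 25.5 ± 6.14 CPM.

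Of 26 genes of phosphate transport and mineralisation, 10 were tested. For the mean of the siRNAs 4 were higher and 3 lower in control, and with each siRNA 3 were higher and 3 lower. The median log2 fold change was 0.11. FGFR1, the receptor tyrosine kinase through which FGF23 acts on phosphate, fell from 1408 ± 59.5 CPM to 328 ± 6.62 and 366 ± 118 (2.10 ± 0.18 and 1.94 ± 0.18, adjusted p = 4.52e-06 and 9.37e-06, edgeR). ANKH, which supplies extracellular pyrophosphate, fell from 154 ± 18.0 to 70.8 ± 9.16 and 81.5 ± 5.76 CPM. GALNT3, the glycosyltransferase that protects FGF23 from cleavage, rose from 11.9 ± 0.773 CPM to 104 ± 11.7 and 148 ± 35.2 (-3.12 ± 0.19 and -3.63 ± 0.18, adjusted p = 4.29e-07 and 2.69e-07, edgeR). SLC37A3 rose from 35.2 ± 3.26 to 85.6 ± 8.11 and 89.2 ± 9.26 CPM.

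Tested genes near STC1 on chromosome 8 were also compared, 4 on the lower-coordinate side of it and 5 on the higher. They lie 266466 to 579929 bases away on the lower-coordinate side and 1096149 to 1604393 bases away on the higher. With each siRNA 3 of these 9 genes (33.3%) were higher in control and 1 (11.1%) was lower. Over all tested genes these shares were 15.1% and 14.8%, and with 9 genes the shares are coarse. The median log2 fold change was 0.24 against the mean of both siRNAs. SLC25A37, which encodes the mitochondrial iron importer mitoferrin 1 and lies 266466 bases away, fell from 163 ± 8.60 to 70.0 ± 7.72 and 65.1 ± 4.90 CPM (1.22 ± 0.11 and 1.33 ± 0.11, adjusted p = 9.13e-06 and 6.70e-06, edgeR). ENTPD4, a nucleotidase of the secretory pathway, rose from 106 ± 5.91 to 189 ± 0.495 and 156 ± 8.87 CPM (-0.83 ± 0.10 and -0.56 ± 0.10, adjusted p = 5.52e-05 and 0.00111, edgeR). ENTPD4 shares part of its span with LOXL2 on the same strand, so its counts are uncertain. R3HCC1 and CHMP7, also on this side, were not called.

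On the far side, DOCK5, a guanine nucleotide exchange factor 1329883 bases away, fell from 151 ± 10.1 to 55.2 ± 2.38 and 53.5 ± 14.1 CPM (1.45 ± 0.15 and 1.49 ± 0.15, adjusted p = 1.83e-05 and 2.10e-05, edgeR). CDCA2, a mitotic regulator of protein phosphatase 1, fell from 62.3 ± 1.71 to 21.3 ± 2.00 with siRNA 1 and to 43.4 ± 1.83 CPM with siRNA 2 (1.55 ± 0.13 and 0.52 ± 0.13, adjusted p = 5.20e-06 and 0.00688, edgeR). NEFL, the light neurofilament chain, was at 38.0 ± 18.3, 22.6 ± 5.63 and 24.7 ± 6.56 CPM and did not pass the test (adjusted p = 0.0752 and 0.133, and 0.0506 against the mean of both, edgeR). GNRH1 and KCTD9 were not called. The log2 fold changes of these 9 genes ran between -0.83 and 1.55, against 5.40 and 4.61 for STC1.

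**Figure D5:**
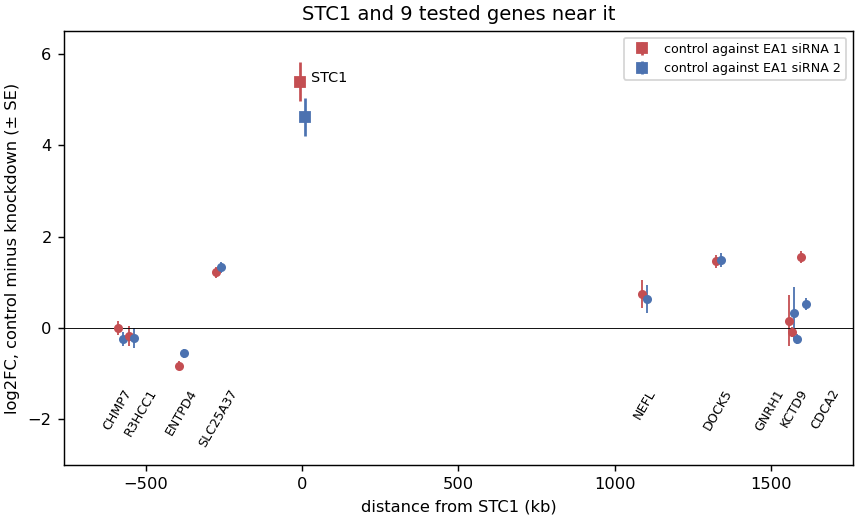
Log2 fold change (± SE), control over EA1 siRNA 1 (red) and EA1 siRNA 2 (blue), of STC1 and 9 tested genes near it, against the distance from STC1 in kb, with the points of each gene set slightly apart for legibility. STC1 lies at 5.40 and 4.61, and these 9 genes lie between -0.83 and 1.55.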

How the data were processed

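RNA-seq libraries of SU-CCS-1 cells were prepared with a strand-specific kit. The authors aligned reads to hg38 with BWA-MEM, an aligner without a splicing model. They then ran featureCounts 1.6.3 per gene and deposited the raw counts without normalization. The annotation, the use of strand and any filter on low counts are not given in the sources used here; each of the 18118 genes had at least 6 counts in 1 library. Columns were assigned to conditions and replicates by the sample labels. The methods name 1 siRNA against EA1, the labels 2.

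From the counts, edgeR 4.0.16 (R 4.3.3) was run over 3 conditions with filterByExpr (minimum count 10, minimum total 15; 14571 genes kept), TMM normalization and two-sided quasi-likelihood tests. Benjamini-Hochberg adjustment covered all genes tested, and genes were called at an adjusted p under 0.05. The common coefficient of biological variation was 0.109. Log2 fold changes are control over knockdown, and between the siRNAs EA1 siRNA 2 over EA1 siRNA 1. The SE of each log2 fold change was derived from its quasi-likelihood test, also for STC1. It is the absolute log2 fold change divided by the square root of the F statistic. Log2 CPM used a prior count of 2. The script was run on simulated counts that vary as the trend at each gene's level. STC1 varied more than that trend, so the simulation did not cover its spread. Binomial intervals are exact (Clopper-Pearson, 95%).

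The members and gene lists were chosen with earlier results of these data known. Named genes were ATF1, EWSR1, all tested genes of the PAPP-A and IGF list, the 5 tested genes nearest to STC1 on each side, the 3 genes nearest in pattern, and of each other list the 2 with the largest change in each direction among those called with each siRNA. Of the nearest genes, 1 is not reported here. Coordinates and exon lengths are from GENCODE release 44, in which 18063 gene identifiers were found. Start regions were from RefSeq, with an entry for 2 of 3 genes. Normalization, filters, tool, block and left-out libraries were varied in 13 alternatives.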

Additional observations from a re-analysis of the deposited data

Results flagged for a closer look

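The response of 5 of 44 named genes differed between the siRNAs in a test of the difference itself. The test was edgeR with Benjamini-Hochberg adjustment, EA1 siRNA 2 over EA1 siRNA 1 on the log2 scale. Over all 14571 genes tested, 2.24% were called in this comparison. Part of the named genes were chosen for large changes with knockdown, so these shares are not directly comparable. The number of genes called here also depended strongly on single libraries, as given below. With EA1 siRNA 2 the level was lower for IGF1R (-0.59, adjusted p = 0.0204), IRS1 (-0.63, adjusted p = 0.0141), IRS2 (-0.44, adjusted p = 0.0398) and VLDLR (-1.01, adjusted p = 0.00120), and higher for CDCA2 (1.02, adjusted p = 0.00440). ATF1 did not pass this test (0.09, adjusted p = 0.817). No group had the 4 samples needed to look for a sample far from the others.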

How the results depend on the processing

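The log2 fold change of STC1 kept its sign for both siRNAs in all 13 alternatives. Leaving out 1 library at a time leaves a group with 1 sample, which is assumed to vary like the others. It then ran from 4.87 to 6.22 for EA1 siRNA 1, from 4.16 to 5.39 for EA1 siRNA 2, from 4.74 to 5.43 for their mean and from 0.036 to 1.58 between the siRNAs. The number of genes lower in control ran from 1892 to 3075 for EA1 siRNA 1 (2898 with all libraries), 1767 to 2543 for EA1 siRNA 2 (2702) and 2030 to 3146 for the mean (3131), each lowest without control siRNA replicate 2. Members called lower in control ran from 3 to 6 for the endoplasmic reticulum list, and those higher from 5 to 9 for the calcium list. Between the siRNAs, the 210 genes higher and 116 lower with EA1 siRNA 2 became 20 to 471 and 13 to 317, lowest without EA1 siRNA 1 replicate 2 and highest without EA1 siRNA 2 replicate 2. With only these 4 libraries in the fit the numbers were 105 and 71, and with DESeq2 330 genes were higher. The cause was not tested. The mean of both siRNAs could not be fitted on 4 libraries, and no alternative was run for STC2. The log2 fold changes of EWSR1 (-0.013 to 0.19), CHMP7 (-0.29 to 0.063), R3HCC1 (-0.51 to 0.11) and GNRH1 (-0.22 to 0.66) changed sign without 1 control library, none of them called. Of the named genes' other values against the mean of both siRNAs, 491 kept their call, 13 gained one (NEFL in 8 alternatives, IGFBP3 in 5) and 10 lost one (IGFBP5 in 5).

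Replicate numbers are shared by the groups, but no label says that a number marks a batch. The replicate differences correlated at 0.244, 0.301 and 0.202 between groups. With the number as a block, STC1 had log2 fold changes of 5.53 and 4.76, 5.14 for the mean and 0.78 between the siRNAs, and 530 genes were higher and 323 lower with EA1 siRNA 2. Between libraries of the same number, STC1 was 1.79-fold and 1.66-fold higher with EA1 siRNA 2. IGFBP5, near the threshold without the block, had a log2 fold change of -1.56 with it (adjusted p = 3.16e-07, edgeR). Where counts in a group are near 3, as for IGF1 in control and PTHLH with the siRNAs, the fold is not reliable.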
